A study of Mus musculus with 9 samples.

Results

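The ephrin, semaphorin, Slit and netrin families encode ligands and receptors best known as guides of growing axons, and these genes were followed across cultured mouse adipose-derived stem cells (ASCs) from 3 fat depots. They were selected by name from the deposited count table, as every protein-coding gene with the symbol of an ephrin (Efna, Efnb), an Eph receptor (Epha, Ephb), a semaphorin (Sema), a plexin (Plxn), a Slit, a Robo, a netrin (Ntn) or an Unc5 receptor. The selection held 65 of the 54532 genes in the table, and its rule used no measured value. The families were, however, chosen with earlier results of these data known. The cells were C57BL/6 ASCs, with no treatment or genetic change named in the labels, from subcutaneous (Sub-ASCs), abdominal (Ab-ASCs) and perivascular adipose tissue (PVASCs). Each group had 3 libraries, 9 in all, from bulk mRNA of cells digested out of the fat with collagenase and Dispase, expanded in serum with growth factors and harvested over a range of passages. The passage of each library, the number and age of the mice and the origin of the replicates are not given in the sources used here, so that p-values measure only the spread between these libraries, which may be technical.

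Ephrins and Eph receptors meet at cell contacts, where the receptor tyrosine kinase signals forward and the membrane-bound ephrin can signal back. Semaphorins act on plexins, often with a neuropilin as co-receptor, Slits on Robo receptors, and netrins on Dcc, neogenin and Unc5 receptors. Outside the nervous system the same families steer endothelial sprouting, the contact of vascular cells and the movement of mesenchymal cells.

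The guidance genes differed widely in level between the 3 depots. Unc5b (a netrin receptor), Sema7a (a membrane-anchored semaphorin), Efnb1, Efnb2 (ephrin-B ligands), Epha2 (an Eph receptor) and Slit2 (a secreted repellent) were low in Sub-ASCs and several times higher in Ab-ASCs and PVASCs. The secreted ligands Ntn1 and Slit3, the class 3 semaphorin Sema3b and most membrane-bound semaphorins were highest in Sub-ASCs. Robo4 (a receptor of endothelial cells), Plxnb1 and Sema3a were highest in PVASCs. Levels are given as FPKM, the reads of a gene scaled by its listed length in kilobases and by the TMM-adjusted size of the library. Comparisons between genes, and sums and shares over genes, depend on these listed lengths, and comparisons between libraries on the scaling. Fold changes are between group levels in a model of the counts, on a log2 scale with their standard error (SE), and adjusted p-values are from edgeR's quasi-likelihood F-test with Benjamini-Hochberg adjustment over the 16526 genes with enough reads to be tested. A gene was called below an adjusted p of 0.05.

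Among the genes tested, any difference between the 3 groups was called for 84.6%, so that a call by itself was the usual outcome in these data. The same test called 56 of the 56 guidance genes that had enough reads. The other 9, namely Efnb3, Epha6, Epha8, Epha10, Ephb1, Sema5b, Slit1, Ntn5 and Unc5d, were not tested. Epha6 and Epha8 had 0 reads in every library, which is below the 3 reads per library taken as measurable, and the remaining 7 had at most 34 reads in any group. A gene that passed the filter through its high group alone had to differ, so that these counts describe the tested genes and are not support for a difference of the families.

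Between PVASCs and Sub-ASCs, 52 of the 56 tested guidance genes were called, against a background of 70.4% of all genes tested. Of these, 29 were higher in PVASCs (background 34.7%) and 23 lower (background 35.7%). With a change of at least 2-fold required as well, 37 were called, or 66.1% of those tested, against 32.2% of all genes. Between PVASCs and Ab-ASCs, 45 were called (background 56.9%), with 32 higher (background 24.7%) and 13 lower in PVASCs (background 32.1%), and 25 of them, or 44.6%, by at least 2-fold (background 15.4%). Between Ab-ASCs and Sub-ASCs, 49 were called (background 75.3%), with 20 higher (background 37.0%) and 29 lower in Ab-ASCs (background 38.3%), and 35 of them, or 62.5%, by at least 2-fold (background 37.8%). The median absolute log2 fold change of the tested guidance genes was 1.38, 0.89 and 1.48 in these pairs, and that of all genes tested was 0.59, 0.38 and 0.75. Guidance genes higher in a group than in both others numbered 18 in PVASCs (background 10.2%), 7 in Ab-ASCs (background 20.9%) and 22 in Sub-ASCs (background 28.7%). Without a test, every library of a group lay above the other 6 libraries for 18 guidance genes in PVASCs (12.7% of all genes), 7 in Ab-ASCs (22.9%) and 23 in Sub-ASCs (30.7%). The 3 comparisons share libraries and are therefore not independent of each other.

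**Figure D1:**
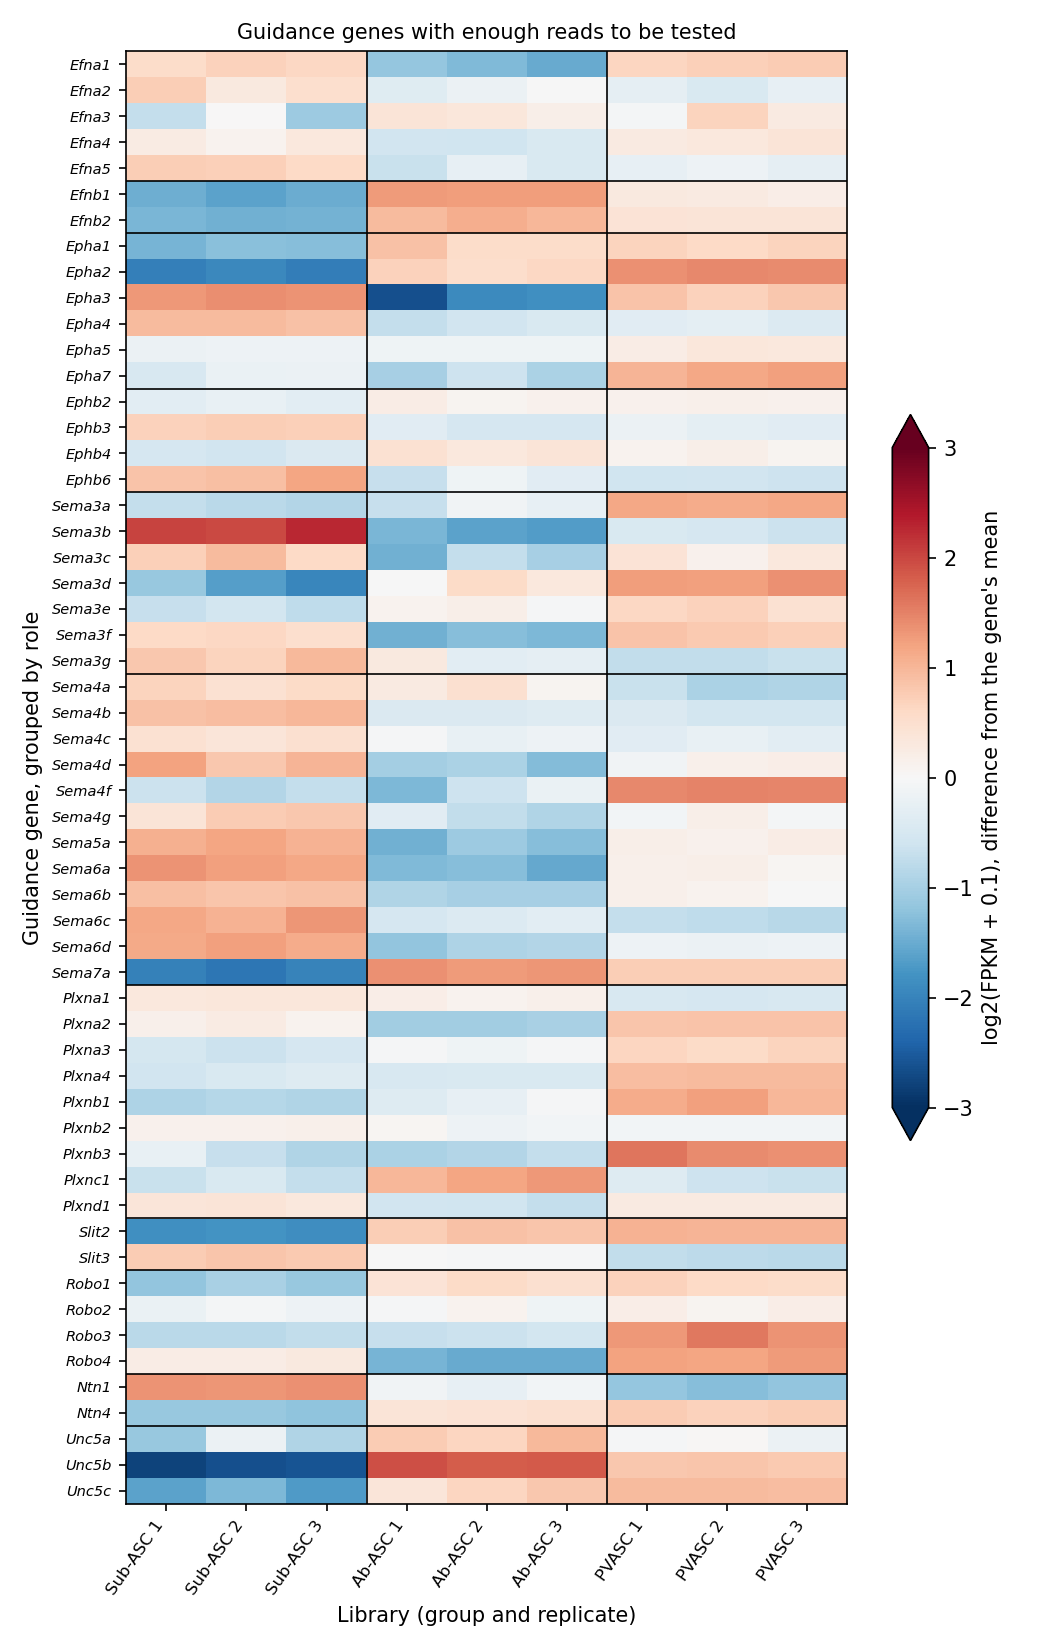
Each row is a guidance gene with enough reads to be tested, grouped by role from ephrin-A ligands at the top to Unc5 receptors at the bottom, and each column a library; colour is log2(FPKM + 0.1) minus the gene's mean over the 9 libraries. Columns of a group look alike, and the widest range is that of Unc5b, which is blue in the 3 Sub-ASC libraries and red in the 6 others.

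The libraries held 20524173 to 29881036 counted reads, with the highest totals in PVASCs (27136829 to 29881036) and the lowest in Ab-ASCs (20524173 to 23832828). At this depth 3 reads on a gene of 1 kilobase correspond to 0.0917 to 0.161 FPKM, a limit that covers counting error only. Replicates varied least in PVASCs, with a common biological coefficient of variation of 3.85%, and most in Ab-ASCs at 12.5%. Ab-ASC replicate 1 had the fewest reads and the lowest TMM factor (0.908). It lay apart from its group for some genes, such as Top2a (11.5 FPKM against 21.1 and 17.7), but not for others, such as Efnb1. Its part in the spread of Ab-ASCs was not tested. All 11 genes of a mesenchymal stem cell and stromal list were read in every group, among them Ly6a (Sca1), Thy1 (CD90) and Eng (CD105), with a summed level of 4500 to 4560 FPKM in Sub-ASC, 1620 to 1650 FPKM in Ab-ASC and 1490 to 1540 FPKM in PVASC libraries. Ly6a and Dcn, at 1700 and 1517 FPKM, made up most of the Sub-ASC sum. Thy1 (111, 77.1 and 294.8 FPKM in Sub-ASCs, Ab-ASCs and PVASCs) and Eng (26.8, 35.9 and 81.0 FPKM) were highest in PVASCs. Genes of cell cycle progression were summed at 9.07 to 9.84 FPKM in Sub-ASCs, 114 to 120 FPKM in Ab-ASCs and 103 to 104 FPKM in PVASCs. Of these 7 genes, 2 were higher and 4 lower in PVASCs than in Ab-ASCs (24.7% and 32.1% of all genes). The higher ones were Mki67 (7.89 FPKM in Ab-ASCs and 13.9 in PVASCs) and Bub1 (5.10 and 7.82 FPKM). Interferon response genes were at 817 to 841 FPKM in Sub-ASCs and between 39.3 and 43.8 FPKM in the libraries of the other groups. The stromal, cell cycle and interferon sums moved with the difference of Sub-ASCs from the other groups, and their part in the guidance genes was not tested. In bulk RNA, fewer cells of a type and less RNA per cell cannot be told apart.

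Promoter sequence is shown for 5 ligands and receptors that stood at the ends of these patterns, 3 of them low in Sub-ASCs (Unc5b, Sema7a and Slit2), 1 highest there (Slit3) and 1 highest in PVASCs (Robo4). Each window runs from 250 bases before to 50 bases after the annotated RefSeq start, on GRCm38.p6 and in the direction of the gene, at Unc5b chr10:60831532-60831831 (minus strand), Sema7a chr9:57939862-57940161 (plus strand), Slit2 chr5:47982905-47983204 (plus strand), Slit3 chr11:35121206-35121505 (plus strand) and Robo4 chr9:37401722-37402021 (plus strand). Capitals mark matches on either strand to the GC box (GGGCGG) and the TATA box (TATAAA), and touching or overlapping matches run together.
Unc5b: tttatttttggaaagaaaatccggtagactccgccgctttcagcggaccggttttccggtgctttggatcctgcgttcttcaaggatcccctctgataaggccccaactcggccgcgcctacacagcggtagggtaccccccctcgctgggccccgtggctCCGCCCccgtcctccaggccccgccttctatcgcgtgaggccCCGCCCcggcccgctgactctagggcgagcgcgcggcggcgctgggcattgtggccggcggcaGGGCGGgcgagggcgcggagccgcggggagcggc
Sema7a: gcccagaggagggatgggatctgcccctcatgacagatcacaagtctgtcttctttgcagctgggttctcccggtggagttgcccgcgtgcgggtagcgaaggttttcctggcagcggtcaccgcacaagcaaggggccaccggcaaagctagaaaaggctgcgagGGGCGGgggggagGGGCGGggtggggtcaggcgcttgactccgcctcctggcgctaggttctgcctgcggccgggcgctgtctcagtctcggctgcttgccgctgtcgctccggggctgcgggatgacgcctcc
Slit2: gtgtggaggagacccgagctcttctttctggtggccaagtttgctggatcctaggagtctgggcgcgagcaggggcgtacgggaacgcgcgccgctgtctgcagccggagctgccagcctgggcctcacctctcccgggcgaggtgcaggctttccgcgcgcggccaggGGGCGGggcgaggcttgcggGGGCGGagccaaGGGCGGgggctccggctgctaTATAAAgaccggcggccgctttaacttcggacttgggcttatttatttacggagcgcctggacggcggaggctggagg
Slit3: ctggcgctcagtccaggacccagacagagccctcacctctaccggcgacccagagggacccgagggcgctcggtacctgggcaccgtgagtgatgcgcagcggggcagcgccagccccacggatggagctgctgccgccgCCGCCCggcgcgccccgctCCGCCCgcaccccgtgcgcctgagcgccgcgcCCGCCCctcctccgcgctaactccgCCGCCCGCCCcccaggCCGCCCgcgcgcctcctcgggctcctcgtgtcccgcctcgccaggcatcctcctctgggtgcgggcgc
Robo4: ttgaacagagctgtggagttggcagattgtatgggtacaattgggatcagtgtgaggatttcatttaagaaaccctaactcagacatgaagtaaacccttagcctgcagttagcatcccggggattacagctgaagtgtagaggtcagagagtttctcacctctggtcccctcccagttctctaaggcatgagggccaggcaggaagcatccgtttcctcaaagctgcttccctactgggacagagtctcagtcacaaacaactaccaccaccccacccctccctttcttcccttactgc
GC boxes were matched 3 times in the window of Unc5b, 2 times in that of Sema7a, 3 times in that of Slit2 and 6 times in that of Slit3. The TATA box was found in the window of Slit2, and neither motif was found in that of Robo4. Of the 56 tested guidance genes 50 had a RefSeq promoter, and 38 of these held the GC box in at least 1 window, against 35.7% of all 32851 windows. Median GC content was 64.2% over the windows of the tested guidance genes and 52.7% over all windows, and a gene with several windows had more chances to match. By the group with the highest mean, the GC box was in 19 of 20 guidance genes highest in Sub-ASCs, 7 of 9 highest in Ab-ASCs and 12 of 21 highest in PVASCs. The TATA box was in 2 of the 50 (13.6% of all windows), the AP-1 motif TGANTCA in 3 (7.8%), the TEAD motif GGAATG in 8 (14.7%) and the ETS motif CCGGAAG in 2 (8.9%). These matches describe the letters of the windows and do not show binding.

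Ephrin-B ligands, transmembrane proteins that signal in both directions, were higher in Ab-ASCs and PVASCs. Efnb1 (ENSMUSG00000031217, chromosome X from 99136130 to 99148991, plus strand) was measured at 6.95, 6.29 and 6.82 FPKM in the Sub-ASC libraries, at 47.0, 46.0 and 45.6 in the Ab-ASC libraries and at 23.5, 23.3 and 22.0 in the PVASC libraries. Every Ab-ASC library lay above every PVASC library, and these above every Sub-ASC library. Efnb1 was 6.91-fold higher in Ab-ASCs than in Sub-ASCs (log2 fold change 2.79, SE 0.060, adjusted p = 7.58e-13), 3.43-fold higher in PVASCs relative to Sub-ASCs (log2 fold change 1.78, SE 0.059, adjusted p = 3.89e-11) and 2.02-fold lower in PVASCs than in Ab-ASCs (log2 fold change -1.01, SE 0.056, adjusted p = 2.12e-08). Efnb2 (ENSMUSG00000001300, chromosome 8 from 8617434 to 8661242, minus strand), the ephrin that marks arterial endothelium, had the same order, at 6.48, 6.17 and 6.22 FPKM in the Sub-ASC libraries, at 32.4, 35.8 and 33.9 in the Ab-ASC libraries and at 22.5, 21.9 and 22.2 in the PVASC libraries. The groups did not overlap. Its level was 5.41-fold higher in Ab-ASCs (log2 fold change 2.44, SE 0.056, adjusted p = 1.16e-12) and 3.53-fold higher in PVASCs (log2 fold change 1.82, SE 0.055, adjusted p = 1.52e-11) than in Sub-ASCs, and PVASCs lay below Ab-ASCs with a log2 fold change of -0.62 (adjusted p = 1.06e-06). Efnb3, the remaining ephrin-B gene, had 25 reads in Sub-ASCs, 14 in Ab-ASCs and 34 in PVASCs and was not tested.

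Ephrin-A ligands, which are held in the membrane by a lipid anchor, did not share this order. Efna1 (ENSMUSG00000027954, chromosome 3 from 89271733 to 89281142, minus strand), a ligand of Epha2, was measured at 3.57, 3.95 and 3.77 FPKM in the Sub-ASC libraries, at 1.03, 0.899 and 0.780 in the Ab-ASC libraries and at 3.83, 4.04 and 4.17 in the PVASC libraries. The Ab-ASC libraries lay below the 6 others, among which Sub-ASC and PVASC libraries overlapped. Efna1 was 4.19-fold lower in Ab-ASCs than in Sub-ASCs (log2 fold change -2.07, SE 0.13, adjusted p = 2.27e-08) and 4.47-fold higher in PVASCs than in Ab-ASCs (log2 fold change 2.16, SE 0.13, adjusted p = 5.14e-08), whereas PVASCs and Sub-ASCs gave a log2 fold change of 0.09 that was not called (adjusted p = 0.445). Efna4, on the same chromosome, was the highest ephrin-A gene in Ab-ASCs and PVASCs but lay below Efna5 in Sub-ASCs. It was measured at 5.91, 5.33 and 6.22 FPKM in the Sub-ASC libraries, at 3.29, 3.28 and 3.62 in the Ab-ASC libraries and at 6.02, 6.27 and 6.53 in the PVASC libraries. Ab-ASCs were again lowest (log2 fold change -0.77, SE 0.10, adjusted p = 1.96e-05 against Sub-ASCs), and 10.5% of its exonic bases overlap an antisense gene, whose reads cannot be told apart since the strand setting of the counting is not given in the sources used here. All 5 ephrin-A genes were called between Ab-ASCs and Sub-ASCs, of which 4 were lower and 1, Efna3, was higher in Ab-ASCs (75.3% of all genes called, 38.3% lower). Efna3 lies between Efna1 and Efna4 on chromosome 3 and was at 0.236 ± 0.136 FPKM in Sub-ASCs, 0.493 ± 0.0474 in Ab-ASCs and 0.505 ± 0.153 in PVASCs (SD, n = 3). It shares 14.1% of its exonic bases with an antisense gene. Genes given like this, with group means or read counts alone, lie outside the rule for named genes and were chosen after their values had been seen. Summed over each class, ephrin-B genes were at 13.1 ± 0.518 FPKM in Sub-ASCs, 80.3 ± 1.32 in Ab-ASCs and 45.2 ± 0.964 in PVASCs, and ephrin-A genes at 19.3 ± 0.597, 9.53 ± 0.521 and 15.8 ± 0.492 FPKM (SD, n = 3). Ephrin-B genes thus made up 40.4% of the ephrin level in Sub-ASCs, 89.4% in Ab-ASCs and 74.1% in PVASCs.

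**Figure D2:**
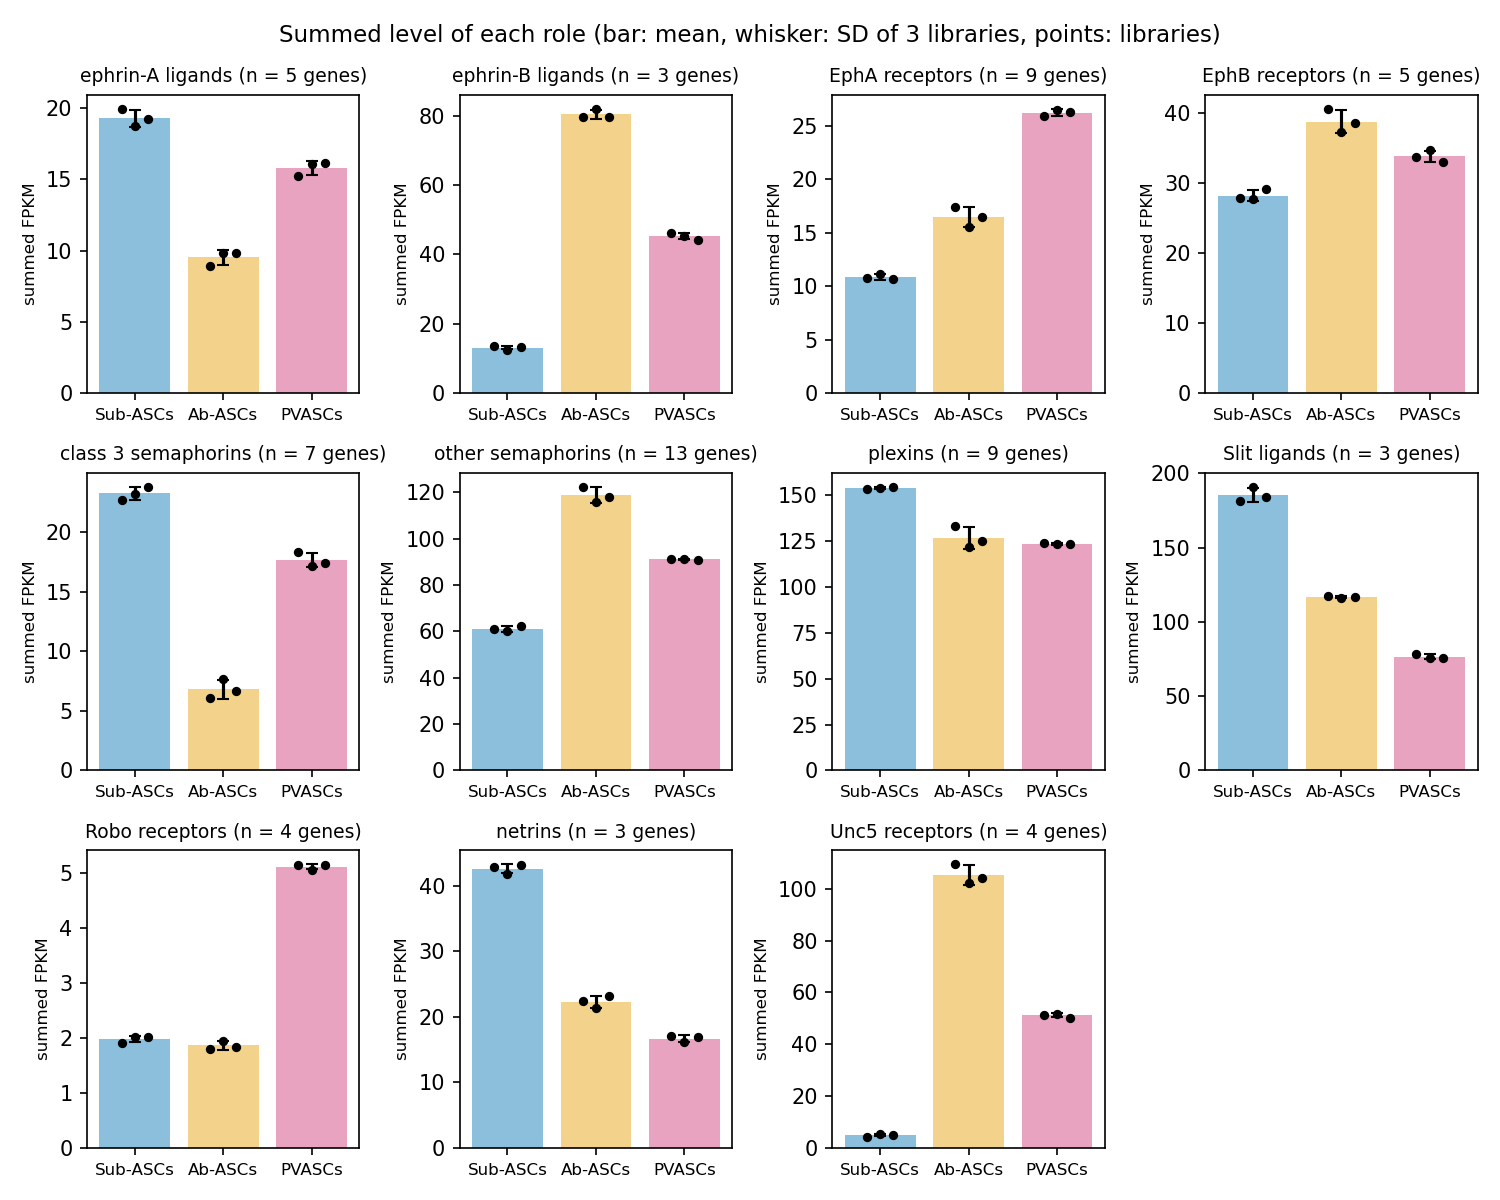
Bars are the mean of the summed FPKM of all genes in a role for each group, whiskers the SD of 3 libraries and points the libraries, with an axis from 0 in each panel. Ephrin-B ligands and Unc5 receptors were highest in Ab-ASCs, EphA and Robo receptors in PVASCs, and Slit ligands, netrins, class 3 semaphorins and ephrin-A ligands in Sub-ASCs.

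Among the EphA receptors, Epha2 and Epha3 had opposite orders in Ab-ASCs and Sub-ASCs. Epha2 (ENSMUSG00000006445, chromosome 4 from 141301240 to 141329384, plus strand), a receptor for ephrin-A1 that is also studied for signalling without ligand, was measured at 1.43, 1.56 and 1.43 FPKM in the Sub-ASC libraries, at 10.2, 9.06 and 9.80 in the Ab-ASC libraries and at 16.5, 17.4 and 17.0 in the PVASC libraries. PVASC libraries were highest and Sub-ASC libraries lowest, with no overlap. Epha2 was 11.5-fold higher in PVASCs (log2 fold change 3.52, SE 0.074, adjusted p = 5.7e-13) and 6.56-fold higher in Ab-ASCs (log2 fold change 2.71, SE 0.074, adjusted p = 6.05e-12) than in Sub-ASCs, and 1.75-fold higher in PVASCs than in Ab-ASCs (log2 fold change 0.81, SE 0.062, adjusted p = 4.88e-07). Epha3 (ENSMUSG00000052504, chromosome 16 from 63543534 to 63864175, minus strand), which binds ephrin-A5 with high affinity, was measured at 2.19, 2.37 and 2.27 FPKM in the Sub-ASC libraries, at 0.0494, 0.148 and 0.159 in the Ab-ASC libraries and at 1.60, 1.40 and 1.54 in the PVASC libraries. All Ab-ASC libraries lay below all PVASC libraries, which lay below all Sub-ASC libraries. The log2 fold change was -4.21 for Ab-ASCs against Sub-ASCs (SE 0.20, adjusted p = 1.11e-09), 3.62 for PVASCs against Ab-ASCs (adjusted p = 2.69e-08) and -0.59 for PVASCs against Sub-ASCs (adjusted p = 0.00183). Epha1 was measured at 1.02, 1.12 and 1.10 FPKM in the Sub-ASC libraries, at 5.25, 4.19 and 4.19 in the Ab-ASC libraries and at 4.57, 4.31 and 4.53 in the PVASC libraries. Its Ab-ASC and PVASC libraries overlapped and were above those of Sub-ASCs, by 4.19-fold in Ab-ASCs (log2 fold change 2.07, SE 0.11, adjusted p = 3.98e-09) and 4.14-fold in PVASCs (log2 fold change 2.05, SE 0.11, adjusted p = 3.77e-09), with 6.0% of its exonic bases shared with Zyx on the opposite strand. Epha4, a receptor that binds ephrins of both classes, was highest in Sub-ASCs at 5.71 ± 0.178 FPKM, against 1.95 ± 0.188 in Ab-ASCs and 2.31 ± 0.106 in PVASCs (SD, n = 3). Epha7 was highest in PVASCs at 0.954 ± 0.0815 FPKM, against 0.294 ± 0.0441 in Sub-ASCs and 0.167 ± 0.0385 in Ab-ASCs (SD, n = 3). Epha5 had 17, 21 and 22 reads in the PVASC libraries and 2 and 3 reads in all of the Sub-ASC and Ab-ASC libraries together. Epha2 made up 13.6% of the summed EphA level in Sub-ASCs, 58.8% in Ab-ASCs and 64.6% in PVASCs.

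All 4 EphB receptors tested were called in both comparisons with Sub-ASCs, with 2 higher and 2 lower in each, where 70.4% and 75.3% of all genes were called. Ephb4 (ENSMUSG00000029710, chromosome 5 from 137350109 to 137378669, plus strand), the receptor of ephrin-B2 that marks venous endothelium, had the highest mean level of them, at 16.3, 15.6 and 17.1 FPKM in the Sub-ASC libraries, at 31.9, 29.0 and 30.4 in the Ab-ASC libraries and at 25.0, 26.1 and 24.7 in the PVASC libraries. Its groups did not overlap, and it was 1.86-fold higher in Ab-ASCs (log2 fold change 0.90, SE 0.058, adjusted p = 2.19e-08) and 1.54-fold higher in PVASCs (log2 fold change 0.63, SE 0.057, adjusted p = 7.04e-07) than in Sub-ASCs. The gap between Ab-ASCs and PVASCs rests on the TMM scaling. With library totals in its place, their means came closer, at 28.38 and 27.55 FPKM. Ephb2 was higher in both groups than in Sub-ASCs by less than 2-fold, with log2 fold changes of 0.44 and 0.42. Ephb3 and Ephb6, the latter a member without kinase activity, were lower by at least 2-fold in both groups than in Sub-ASCs. Ephb6 was at 1.96 ± 0.263 FPKM in Sub-ASCs, 0.707 ± 0.160 in Ab-ASCs and 0.592 ± 0.0101 in PVASCs (SD, n = 3). Between PVASCs and Ab-ASCs, none of the 4 EphB receptors tested changed by as much as 2-fold, and Ephb2 and Ephb6 were not called (adjusted p = 0.867 and 0.227).

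Class 3 semaphorins are secreted and act through neuropilins and plexins, mostly as repellents. All 7 were tested and called in each of the 3 pairs (70.4%, 56.9% and 75.3% of all genes), but in different directions. Sema3b (ENSMUSG00000057969, chromosome 9 from 107597674 to 107609229, minus strand) had the highest mean level of them over the 9 libraries. It ranked first in Sub-ASCs but in neither other group, at 10.8, 10.6 and 12.9 FPKM in the Sub-ASC libraries, at 0.944, 0.782 and 0.737 in the Ab-ASC libraries and at 1.86, 1.79 and 1.63 in the PVASC libraries. Every Sub-ASC library lay above the PVASC libraries, and these above the Ab-ASC libraries. Sema3b was 14.0-fold lower in Ab-ASCs (log2 fold change -3.81, SE 0.12, adjusted p = 1.82e-11) and 6.50-fold lower in PVASCs (log2 fold change -2.70, SE 0.10, adjusted p = 1.23e-10) than in Sub-ASCs, and 2.16-fold higher in PVASCs than in Ab-ASCs (log2 fold change 1.11, SE 0.13, adjusted p = 1.68e-05). Its neighbour Sema3f, a ligand of neuropilin-2 that lies 72271 bases away on the same strand of chromosome 9, was measured at 4.31, 4.39 and 3.98 FPKM in the Sub-ASC libraries, at 0.971, 1.09 and 1.03 in the Ab-ASC libraries and at 5.12, 4.88 and 4.66 in the PVASC libraries. Ab-ASCs were lowest, 4.10-fold below Sub-ASCs (log2 fold change -2.03, SE 0.087, adjusted p = 4.08e-10) and 4.74-fold below PVASCs (PVASCs against Ab-ASCs, log2 fold change 2.24, SE 0.086, adjusted p = 8.63e-10). PVASCs and Sub-ASCs differed by a log2 fold change of only 0.21 (adjusted p = 0.0216), and this call was lost without Sub-ASC replicate 3 (0.17, adjusted p = 0.0966) and without PVASC replicate 1 (0.18, adjusted p = 0.0788). Sema3c was also lowest in Ab-ASCs, at 1.49 ± 0.393 FPKM against 5.37 ± 0.671 in Sub-ASCs and 3.84 ± 0.363 in PVASCs (SD, n = 3).

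Sema3a, Sema3d and Sema3e follow each other on chromosome 5 and were all highest in PVASCs. Sema3a, a repellent of axons and endothelial cells that binds neuropilin-1, was measured at 0.876, 0.825 and 0.781 FPKM in the Sub-ASC libraries, at 0.898, 1.41 and 1.26 in the Ab-ASC libraries and at 3.51, 3.37 and 3.53 in the PVASC libraries. The PVASC libraries lay above all others, and Ab-ASC replicate 1 was the lowest of its group but above every Sub-ASC library. Sema3a was 4.20-fold higher in PVASCs relative to Sub-ASCs (log2 fold change 2.07, SE 0.12, adjusted p = 1.19e-08) and 2.90-fold higher than in Ab-ASCs (log2 fold change 1.54, SE 0.12, adjusted p = 5.81e-07). Sema3d was measured at 0.310, 0.188 and 0.133 FPKM in the Sub-ASC libraries, at 0.793, 1.24 and 1.01 in the Ab-ASC libraries and at 2.06, 2.01 and 2.21 in the PVASC libraries. The groups stood in the same order without overlap. PVASCs exceeded Sub-ASCs by 10.1-fold (log2 fold change 3.33, SE 0.22, adjusted p = 2.8e-08) and Ab-ASCs by 2.05-fold (log2 fold change 1.03, SE 0.18, adjusted p = 0.000386). Sema3e, which binds plexin-D1 without a neuropilin, was at 0.543 ± 0.0489 FPKM in Sub-ASCs, 0.979 ± 0.0774 in Ab-ASCs and 1.44 ± 0.123 in PVASCs (SD, n = 3). Their summed level with the other class 3 genes was 23.2 ± 0.558 FPKM in Sub-ASCs, 6.81 ± 0.795 in Ab-ASCs and 17.6 ± 0.608 in PVASCs (SD, n = 3).

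Membrane-bound semaphorins of the other classes were mostly highest in Sub-ASCs, with Sema7a as the main exception. Of the 12 tested, 10 were lower and 2, Sema7a and Sema4f, higher in PVASCs when set against Sub-ASCs (35.7% and 34.7% of all genes). In Ab-ASCs, 9 were lower and 1, Sema7a, was higher than in Sub-ASCs (38.3% and 37.0% of all genes). Sema7a (ENSMUSG00000038264, chromosome 9 from 57940112 to 57962865, plus strand), a lipid-anchored semaphorin that binds Itgb1 integrin and plexin-C1, was measured at 9.63, 8.76 and 9.84 FPKM in the Sub-ASC libraries, at 102, 96.3 and 98.5 in the Ab-ASC libraries and at 66.1, 65.7 and 66.2 in the PVASC libraries. The groups were far apart relative to the spread of their libraries. Sema7a was 10.5-fold higher in Ab-ASCs (log2 fold change 3.40, SE 0.060, adjusted p = 1.5e-13) and 7.01-fold higher in PVASCs (log2 fold change 2.81, SE 0.059, adjusted p = 5.55e-13) than in Sub-ASCs, and lower in PVASCs than in Ab-ASCs (log2 fold change -0.58, SE 0.053, adjusted p = 2.15e-06). It made up 15.4% of the summed level of these semaphorins in Sub-ASCs, 83.4% in Ab-ASCs and 72.4% in PVASCs.

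The class 5 and 6 genes ran the other way. Sema5a, which carries thrombospondin repeats, was measured at 4.65, 4.98 and 4.54 FPKM in the Sub-ASC libraries, at 0.733, 0.954 and 0.830 in the Ab-ASC libraries and at 2.46, 2.36 and 2.51 in the PVASC libraries. Sub-ASC libraries were highest and Ab-ASC libraries lowest, with a 5.61-fold difference between them (log2 fold change -2.49, SE 0.087, adjusted p = 6.18e-11). Sema6a, a ligand of plexin-A2 and plexin-A4, was measured at 1.67, 1.54 and 1.46 FPKM in the Sub-ASC libraries, at 0.177, 0.187 and 0.142 in the Ab-ASC libraries and at 0.682, 0.695 and 0.630 in the PVASC libraries. The order was the same, and Ab-ASCs were 9.19-fold below Sub-ASCs (log2 fold change -3.20, SE 0.13, adjusted p = 2.54e-10) and 3.96-fold below PVASCs (PVASCs against Ab-ASCs, log2 fold change 1.99, SE 0.14, adjusted p = 1.96e-07). Sema6d, a ligand of plexin-A1, was measured at 8.61, 9.20 and 8.57 FPKM in the Sub-ASC libraries, at 1.65, 1.98 and 2.06 in the Ab-ASC libraries and at 3.47, 3.44 and 3.46 in the PVASC libraries. Here too PVASCs lay between the other groups, 2.54-fold below Sub-ASCs (log2 fold change -1.35, SE 0.074, adjusted p = 5.14e-09) and 1.82-fold above Ab-ASCs (log2 fold change 0.86, SE 0.079, adjusted p = 2.19e-06). Sema6c, by contrast, was lowest in PVASCs, at 2.20, 2.03 and 2.50 FPKM in the Sub-ASC libraries, at 0.633, 0.674 and 0.729 in the Ab-ASC libraries and at 0.530, 0.508 and 0.482 in the PVASC libraries. It was 4.42-fold lower in PVASCs than in Sub-ASCs (log2 fold change -2.14, SE 0.11, adjusted p = 3.15e-09), while the smaller difference from Ab-ASCs (log2 fold change -0.42, adjusted p = 0.0154) was lost without Ab-ASC replicate 3 (adjusted p = 0.0599) or PVASC replicate 3 (adjusted p = 0.0518). Sema4f was at 0.681 ± 0.0109 FPKM in PVASCs but at 0.0684 ± 0.0149 in Sub-ASCs and 0.0792 ± 0.0667 in Ab-ASCs (SD, n = 3). Sema4d, the ligand of plexin-B1, was highest in Sub-ASCs at 0.632 ± 0.105 FPKM, against 0.0701 ± 0.0210 in Ab-ASCs and 0.282 ± 0.0411 in PVASCs (SD, n = 3).

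**Figure D3:**
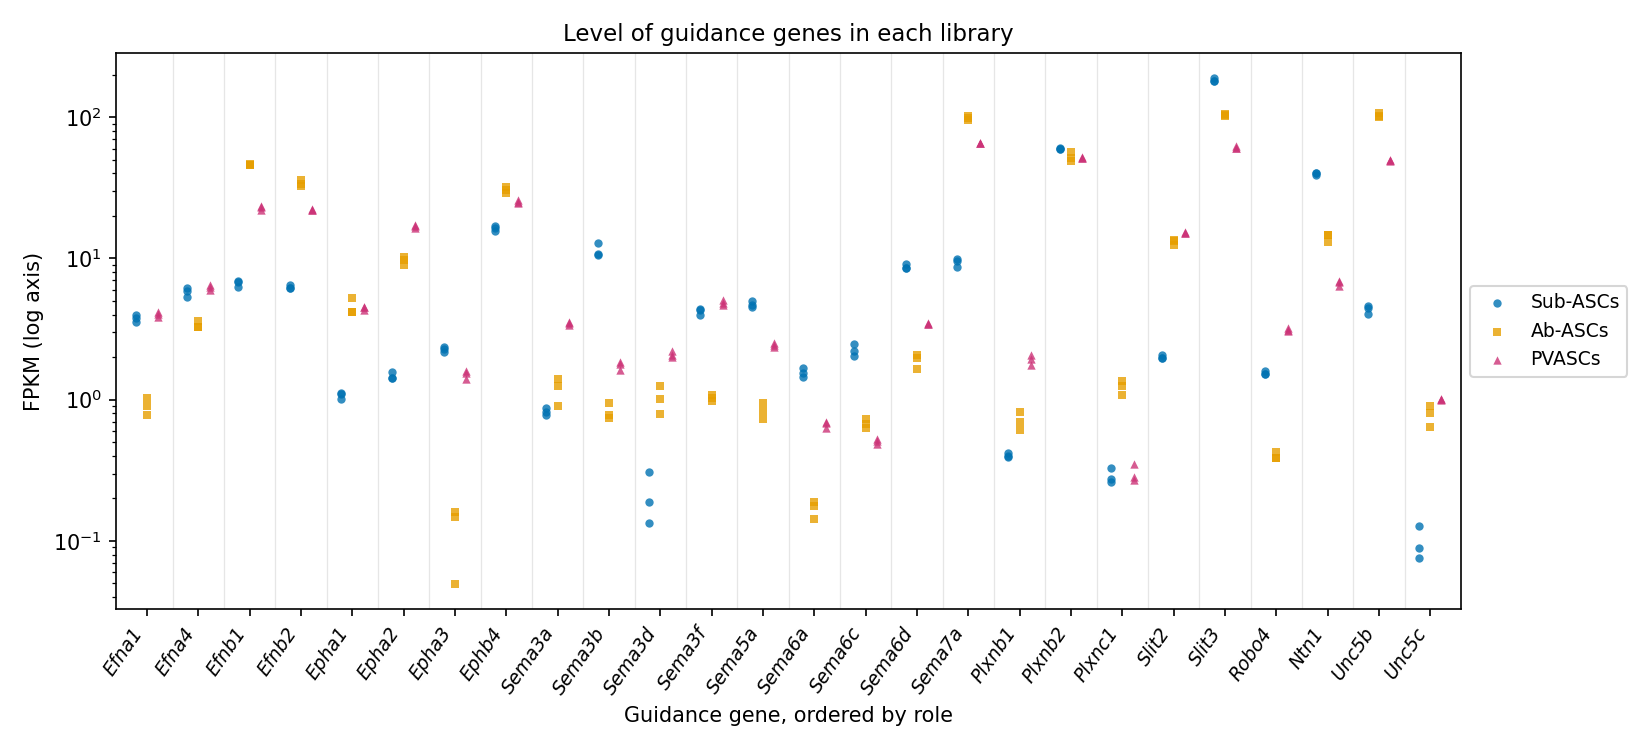
Points are the FPKM of single libraries on a log axis for the 26 guidance genes given with the value of every library, ordered by role, with circles for Sub-ASCs, squares for Ab-ASCs and triangles for PVASCs. The symbols of a group lie close together for most genes, and Unc5b, Sema7a, Slit2 and Epha2 show Sub-ASCs well below both other groups.

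The plexins, receptors that inactivate small GTPases when bound by semaphorins, differed in level and in how much they changed. Plxnb2, a receptor for class 4 semaphorins, was the highest plexin in PVASCs and second to Plxna1 in the other groups, at 60.0, 59.6 and 60.6 FPKM in the Sub-ASC libraries, at 56.7, 49.0 and 51.6 in the Ab-ASC libraries and at 51.9, 51.7 and 51.2 in the PVASC libraries. Sub-ASC libraries were above the others by a small margin, with log2 fold changes of -0.22 in PVASCs (adjusted p = 0.00326) and -0.20 in Ab-ASCs (adjusted p = 0.00605). Between PVASCs and Ab-ASCs, whose libraries overlapped, the log2 fold change was -0.02 (SE 0.054, adjusted p = 0.742). Plxna1 was at 63.3 ± 0.677 FPKM in Sub-ASCs, 55.8 ± 1.75 in Ab-ASCs and 35.9 ± 0.264 in PVASCs (SD, n = 3), with 10.7% of its exonic bases shared with an antisense gene. These 2 genes made up 80.1%, 85.4% and 70.9% of the summed plexin level in Sub-ASCs, Ab-ASCs and PVASCs.

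Plxnb1, the receptor of Sema4d, was measured at 0.394, 0.418 and 0.402 FPKM in the Sub-ASC libraries, at 0.610, 0.691 and 0.814 in the Ab-ASC libraries and at 1.93, 2.07 and 1.75 in the PVASC libraries. PVASC libraries were highest, 4.73-fold above Sub-ASCs (log2 fold change 2.24, SE 0.12, adjusted p = 2.97e-09) and 2.71-fold above Ab-ASCs (log2 fold change 1.44, SE 0.11, adjusted p = 4.78e-07). Plxnc1, the plexin that binds Sema7a, was measured at 0.273, 0.330 and 0.260 FPKM in the Sub-ASC libraries, at 1.08, 1.25 and 1.36 in the Ab-ASC libraries and at 0.351, 0.284 and 0.271 in the PVASC libraries. Ab-ASC libraries lay above the 6 others, 4.28-fold above Sub-ASCs (log2 fold change 2.10, SE 0.15, adjusted p = 5.48e-08), whereas PVASCs and Sub-ASCs overlapped (log2 fold change 0.07, adjusted p = 0.709). Sema7a and Plxnc1 thus both had their highest level in Ab-ASCs, but only Sema7a was also called higher in PVASCs relative to Sub-ASCs, and the difference between the genes was not tested. Plxnb3 had 114, 88 and 90 reads in the PVASC libraries and 19 and 7 reads in all of the Sub-ASC and Ab-ASC libraries together. Plxna2, Plxna3 and Plxna4 also had their highest level in PVASCs, called against both other groups, at 4.78 ± 0.0541, 3.74 ± 0.125 and 1.36 ± 0.0199 FPKM (SD, n = 3). Plxnd1 was lower in Ab-ASCs, at 12.6 ± 0.734 FPKM against 25.0 ± 0.520 in Sub-ASCs and 23.4 ± 0.121 in PVASCs (SD, n = 3).

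The Slits, secreted ligands of Robo receptors, were represented by Slit3 and Slit2, which moved in opposite directions. Slit3 (ENSMUSG00000056427, chromosome 11 from 35121224 to 35708507, plus strand) had the highest mean level of all guidance genes over the 9 libraries, although Unc5b was close to it in Ab-ASCs and Sema7a lay above it in PVASCs. Slit3 was measured at 179, 189 and 182 FPKM in the Sub-ASC libraries, at 105, 103 and 103 in the Ab-ASC libraries and at 63.0, 60.8 and 60.2 in the PVASC libraries. Every Sub-ASC library lay above every Ab-ASC library, and these above every PVASC library. Slit3 was 2.99-fold lower in PVASCs (log2 fold change -1.58, SE 0.044, adjusted p = 8.18e-12) and 1.77-fold lower in Ab-ASCs (log2 fold change -0.82, SE 0.044, adjusted p = 3.27e-09) than in Sub-ASCs. Slit2 (ENSMUSG00000031558, chromosome 5 from 47983138 to 48307733, plus strand) was measured at 1.98, 2.06 and 1.96 FPKM in the Sub-ASC libraries, at 12.4, 13.6 and 13.2 in the Ab-ASC libraries and at 15.3, 15.1 and 15.1 in the PVASC libraries. Its order was the reverse, with 7.57-fold more in PVASCs (log2 fold change 2.92, SE 0.054, adjusted p = 2.11e-13) and 6.54-fold more in Ab-ASCs (log2 fold change 2.71, SE 0.054, adjusted p = 3.52e-13) than in Sub-ASCs, and a log2 fold change of 0.21 for PVASCs against Ab-ASCs (adjusted p = 0.00336). The share of Slit2 in the summed Slit level was 1.08% in Sub-ASCs, 11.2% in Ab-ASCs and 19.8% in PVASCs. The table lists 25433 bases for Slit2, against 6067 bases for Slit3, and its FPKM and its share would be higher with a shorter length, while fold changes do not depend on it. Slit1 was barely read, with 26, 15 and 29 reads in Sub-ASCs, Ab-ASCs and PVASCs.

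All 4 Robo receptors exceeded their Sub-ASC level in PVASCs by at least 2-fold (32.2% of all genes changed that much in either direction), and Robo3 and Robo4 exceeded their Ab-ASC level as well (15.4%). Robo4 (ENSMUSG00000032125, chromosome 9 from 37401897 to 37415115, plus strand), the Robo of endothelial cells, was the highest of them in Sub-ASCs and PVASCs but lay below Robo1 in Ab-ASCs. It was measured at 1.51, 1.53 and 1.60 FPKM in the Sub-ASC libraries, at 0.425, 0.386 and 0.387 in the Ab-ASC libraries and at 3.10, 3.04 and 3.23 in the PVASC libraries. The PVASC libraries were highest and the Ab-ASC libraries lowest, without overlap. Robo4 was 7.83-fold higher in PVASCs than in Ab-ASCs (log2 fold change 2.97, SE 0.10, adjusted p = 3e-10) and 2.02-fold higher than in Sub-ASCs (log2 fold change 1.01, SE 0.080, adjusted p = 1.8e-07), and 3.88-fold lower in Ab-ASCs than in Sub-ASCs (log2 fold change -1.96, SE 0.11, adjusted p = 4.49e-09). Of 10 endothelial marker genes, PVASCs exceeded Sub-ASCs in 8 (34.7% of all genes) and Ab-ASCs in 9 (24.7% of all genes), and none was at 0 in any group. Their summed level was 49.9 to 52.2 FPKM in Sub-ASC, 15.1 to 15.7 FPKM in Ab-ASC and 181 to 182 FPKM in PVASC libraries, with Pecam1 (CD31) at 7.27, 2.0 and 28.8 FPKM, Emcn (endomucin) at 3.73, 1.96 and 51.7 FPKM and Cdh5 (VE-cadherin) at 11.1, 4.09 and 49.7 FPKM. The sum, Pecam1, Emcn and Cdh5 had the order of groups of Robo4, whereas Tek (9.76, 2.15 and 3.15 FPKM) and Cldn5 (6.36, 0.655 and 0.563 FPKM) were highest in Sub-ASCs. The part of endothelial cells in the difference of Robo4 was not tested. Robo3, a receptor of commissural axons that ends 554 bases from Robo4 on the opposite strand, had 81, 93 and 81 reads in the PVASC libraries, 2, 3 and 4 reads in the Ab-ASC libraries and 1, 1 and 2 reads in the Sub-ASC libraries. Robo1 was at 0.405 ± 0.0393 FPKM in Sub-ASCs, 1.42 ± 0.0849 in Ab-ASCs and 1.55 ± 0.0758 in PVASCs (SD, n = 3), and its difference between PVASCs and Ab-ASCs was not called (adjusted p = 0.194). Robo2 did not exceed 0.0522 FPKM in any library. Summed Robo levels of 1.98 ± 0.0597, 1.87 ± 0.0775 and 5.12 ± 0.0455 FPKM in Sub-ASCs, Ab-ASCs and PVASCs stood beside summed Slit levels of 186 ± 4.91, 117 ± 0.587 and 76.5 ± 1.60 FPKM (SD, n = 3). Most of the Robo sum was Robo4 in Sub-ASCs (1.55 FPKM) and PVASCs (3.12 FPKM), and Robo1 in Ab-ASCs. Binding of Slits by these receptors was not measured, so the sum is not a level of Slit receptor.

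Netrins are secreted proteins related to laminin, and Unc5 receptors bind netrin-1. Ntn1 (ENSMUSG00000020902, chromosome 11 from 68209364 to 68400823, minus strand) was measured at 40.2, 39.1 and 40.6 FPKM in the Sub-ASC libraries, at 14.6, 13.2 and 14.7 in the Ab-ASC libraries and at 6.94, 6.42 and 6.84 in the PVASC libraries. The Sub-ASC libraries were highest and the PVASC libraries lowest, without overlap. Ntn1 was 5.93-fold lower in PVASCs (log2 fold change -2.57, SE 0.060, adjusted p = 1.66e-12) and 2.83-fold lower in Ab-ASCs (SE 0.058 on the log2 scale, adjusted p = 1.66e-10) than in Sub-ASCs, and 2.10-fold lower in PVASCs than in Ab-ASCs (log2 fold change -1.07, SE 0.059, adjusted p = 2.28e-08). Ntn4, a netrin of basement membranes, had the reverse order, at 2.61 ± 0.0646 FPKM in Sub-ASCs, 8.14 ± 0.282 in Ab-ASCs and 9.93 ± 0.245 in PVASCs (SD, n = 3). It made up 6.14% of the summed netrin level in Sub-ASCs, 36.5% in Ab-ASCs and 59.6% in PVASCs.

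Unc5b (ENSMUSG00000020099, chromosome 10 from 60762593 to 60831581, minus strand), a netrin receptor known from endothelial tip cells, showed the largest log2 fold change of the 26 guidance genes given with every library. Those of Robo3 and Plxnb3, with few reads outside PVASCs, were larger. Unc5b was measured at 4.03, 4.46 and 4.62 FPKM in the Sub-ASC libraries, at 108, 100.1 and 102 in the Ab-ASC libraries and at 49.6, 50.0 and 48.7 in the PVASC libraries. The Ab-ASC libraries were highest, the PVASC libraries intermediate and the Sub-ASC libraries lowest, without overlap. Unc5b was 23.6-fold higher in Ab-ASCs (log2 fold change 4.56, SE 0.065, adjusted p = 3.26e-14) and 11.3-fold higher in PVASCs (log2 fold change 3.50, SE 0.063, adjusted p = 1.61e-13) than in Sub-ASCs, and 2.09-fold lower in PVASCs than in Ab-ASCs (log2 fold change -1.06, SE 0.056, adjusted p = 1.43e-08). Unc5c was measured at 0.0897, 0.127 and 0.0757 FPKM in the Sub-ASC libraries, at 0.645, 0.804 and 0.904 in the Ab-ASC libraries and at 1.01, 1.01 and 0.987 in the PVASC libraries. It was low in Sub-ASCs and higher in Ab-ASCs (log2 fold change 3.01, SE 0.17, adjusted p = 6.98e-09) and PVASCs (log2 fold change 3.36, SE 0.17, adjusted p = 1.83e-09). Its smaller difference between PVASCs and Ab-ASCs (log2 fold change 0.35, adjusted p = 0.0364) was lost without Ab-ASC replicate 1 or 2 or without any of the 3 PVASC libraries (adjusted p = 0.0526 to 0.0942). Unc5a was at 0.422 ± 0.193 FPKM in Sub-ASCs, 1.36 ± 0.159 in Ab-ASCs and 0.703 ± 0.0581 in PVASCs (SD, n = 3). In Sub-ASCs a netrin level of 42.6 ± 0.685 FPKM stood beside an Unc5 level of 4.90 ± 0.436 FPKM, and in Ab-ASCs and PVASCs netrins were at 22.3 ± 0.889 and 16.7 ± 0.526 FPKM and Unc5 receptors at 105 ± 3.82 and 51.1 ± 0.738 FPKM (SD, n = 3).

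**Figure D4:**
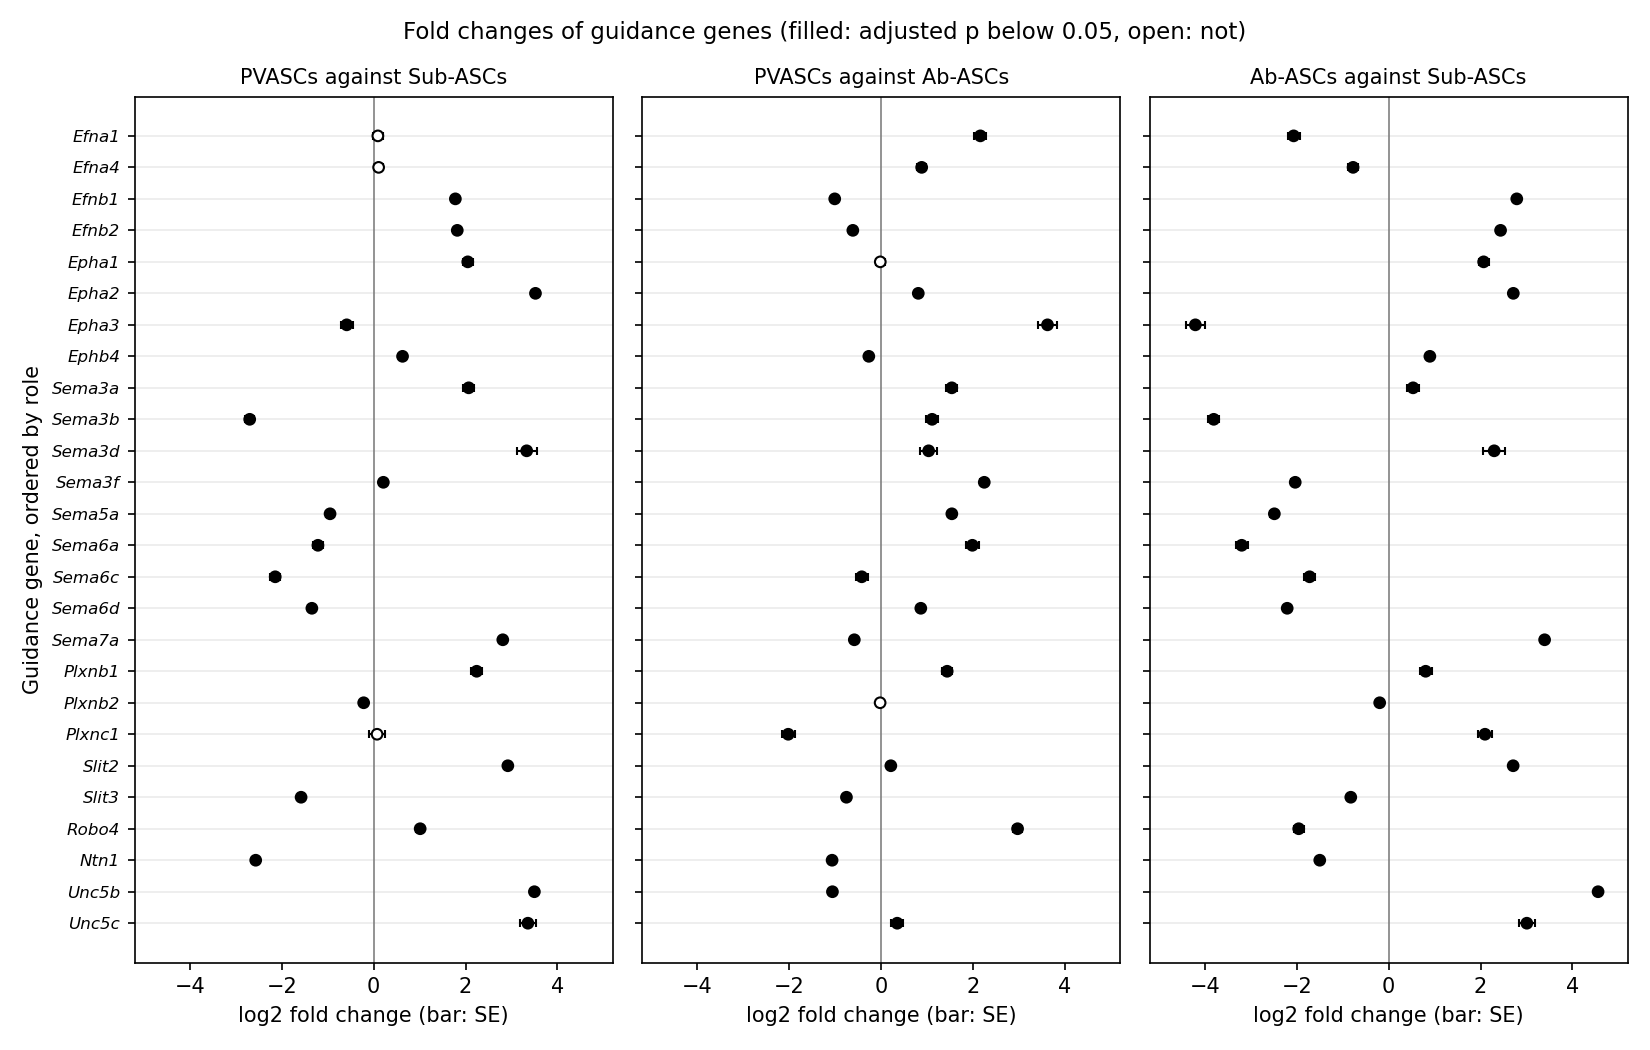
Points are the log2 fold changes of the 26 guidance genes in each pair of groups, bars the SE, filled points those with an adjusted p below 0.05 and open points the others. Unc5b and Epha2 lie far to the right against Sub-ASCs, Sema3b and Epha3 far to the left for Ab-ASCs, and changes between PVASCs and Ab-ASCs are smaller for most genes.

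Markers of other cell types also differed between the groups and moved with several of these genes. Smooth muscle and pericyte markers were summed at 35 to 38.3 FPKM in Sub-ASC, 2390 to 2980 FPKM in Ab-ASC and 1470 to 1550 FPKM in PVASC libraries, a sum with the order of Unc5b, Sema7a, Efnb1 and Efnb2 and made up mostly of Acta2 at 29.6, 2491 and 1407 FPKM. None of the 8 was at 0. All 8 were higher in PVASCs than in Sub-ASCs (34.7% of all genes). Of them 6 were higher and 2 lower in Ab-ASCs than in Sub-ASCs (37.0% and 38.3% of all genes). Between PVASCs and Ab-ASCs, 3 were higher and 5 lower in PVASCs (24.7% and 32.1% of all genes). The list did not move as one, since Rgs5 (1.38, 0.165 and 4.97 FPKM in Sub-ASCs, Ab-ASCs and PVASCs), Notch3 (3.08, 1.18 and 4.89 FPKM) and Cspg4 (0.124, 2.67 and 6.09 FPKM) were highest in PVASCs. The sum of 10 mesothelial markers was also highest in Ab-ASCs, at 1.17 to 1.63, 43.9 to 49 and 21.5 to 22.9 FPKM, with Upk1b, Lrrn4 and Muc16 at 0 reads in Sub-ASCs. Unlike the sum, Krt19 was highest in PVASCs, at 7.93 FPKM against 2.37 in Ab-ASCs. Schwann cell and neuron markers were highest as a sum in PVASCs, at 62.8 to 65.1 FPKM against 21.6 to 26 FPKM in Ab-ASCs and 11.1 to 11.4 FPKM in Sub-ASCs, as were Sema4f, Plxnb3, Robo3 and Epha5. Most of this sum was Tubb3, at 9.11, 22.8 and 54.2 FPKM in Sub-ASCs, Ab-ASCs and PVASCs. Mbp was highest in Sub-ASCs, at 1.10 FPKM. Sox10 was at 0.209 FPKM in Sub-ASCs, 0.0828 in Ab-ASCs and 3.91 in PVASCs, and Elavl3 had 0 reads in PVASCs. Macrophage and haematopoietic markers were summed at 52.9 to 55.1, 37.9 to 49 and 25.1 to 28.8 FPKM in Sub-ASC, Ab-ASC and PVASC libraries. Unlike this sum, Csf1r was lowest in Sub-ASCs, at 3.59 FPKM against 6.98 in Ab-ASCs and 4.68 in PVASCs. The part of these cell types in the guidance genes was not tested.

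Genes that work with the families were read from a list of 51 co-receptors, extracellular partners and intracellular effectors, of which 47 were tested and 45 called for any difference (background 84.6%). PVASCs against Sub-ASCs gave 24 higher and 17 lower, PVASCs against Ab-ASCs 20 higher and 13 lower, and Ab-ASCs against Sub-ASCs 20 higher and 22 lower, or 87.2%, 70.2% and 89.4% of those tested, against 70.4%, 56.9% and 75.3% of all genes. At least 2-fold changes were called for 40.4%, 17% and 46.8% of them, beside 32.2%, 15.4% and 37.8% of all genes. The co-receptors of the class 3 semaphorins were present in each group, with Nrp1 at 8.14, 9.61 and 11.9 FPKM and Nrp2 at 14.2, 16.1 and 8.36 FPKM in Sub-ASCs, Ab-ASCs and PVASCs. Of the netrin receptors outside the Unc5 family, Neo1 (neogenin) was at 23.6, 15.5 and 12.4 FPKM, whereas Dcc had 1 read in Sub-ASCs and 0 reads in the other groups. Nrp1, Nrp2 and Neo1 are given although they lie below the size limit for naming, since the guidance ligands use them.

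The widest difference in this list was that of Draxin, a secreted protein that binds netrin-1 and Dcc. Draxin was measured at 70.6, 67.9 and 72.9 FPKM in the Sub-ASC libraries, at 0.826, 0.795 and 0.695 in the Ab-ASC libraries and at 0.200, 0.228 and 0.196 in the PVASC libraries. It was 91.5-fold lower in Ab-ASCs (log2 fold change -6.52, SE 0.079, adjusted p = 1.08e-14) and 338-fold lower in PVASCs (log2 fold change -8.40, SE 0.089, adjusted p = 8.5e-15) than in Sub-ASCs, which is the order of Ntn1. Mical2, of the redox enzymes that disassemble actin downstream of semaphorins, was measured at 2.45, 2.56 and 2.62 FPKM in the Sub-ASC libraries, at 64.1, 60.8 and 62.6 in the Ab-ASC libraries and at 46.2, 46.2 and 45.2 in the PVASC libraries. It was 24.6-fold higher in Ab-ASCs (log2 fold change 4.62, SE 0.053, adjusted p = 9.06e-15) and 18.0-fold higher in PVASCs (log2 fold change 4.17, SE 0.052, adjusted p = 1.91e-14) than in Sub-ASCs. Dpysl3, of the collapsin response mediator proteins, was at 5.30 ± 0.114 FPKM in Sub-ASCs, 31.2 ± 0.566 in Ab-ASCs and 54.9 ± 0.427 in PVASCs (SD, n = 3). The Slit-Robo GTPase-activating protein gene Srgap1 was highest in Sub-ASCs, at 14.0 ± 0.891 FPKM against 3.40 ± 0.130 in Ab-ASCs and 3.23 ± 0.136 in PVASCs (SD, n = 3). Arhgef15 and Ngef, exchange factors of the ephexin family that act downstream of Eph receptors, were highest in PVASCs at 3.34 ± 0.142 and 1.89 ± 0.191 FPKM (SD, n = 3). Arhgef15 was at 0.559 ± 0.0271 FPKM in Sub-ASCs and 0.105 ± 0.0358 in Ab-ASCs, the order of Robo4 and of the summed endothelial markers. Ngef had 7 reads in all Sub-ASC libraries together and 79 in Ab-ASCs, against 692 in PVASCs.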

How the data were processed

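Libraries of mRNA were made from total RNA with the NEBNext Ultra kit, and the deposited table holds the authors' read counts as whole numbers, neither normalized nor filtered, with the position, length and biotype of 54532 genes. The submitters' processing notes name CASAVA 1.8, Bowtie 0.12.2 and featureCounts 1.5.0-p3, and the builds mm8 and mm10 with no role given. The strand setting and the annotation release are not given in the sources used here. Start and end of 98.3% of the genes, and of all 65 guidance genes, were those of GENCODE M21 on GRCm38.

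Groups and replicate numbers were taken from the sample titles. The guidance genes and all gene lists were chosen with earlier results of these data known. Under R 4.3.3, counts were fitted with edgeR 4.0.16 (limma 3.58.1) after filterByExpr by group and TMM scaling, with all 9 libraries in 1 model without covariates. Pairs of groups, and any difference, were tested by the quasi-likelihood F-test with Benjamini-Hochberg adjustment over 16526 genes at a threshold of 0.05. FPKM was computed here from counts, listed gene length and the TMM-scaled library size, and a ± gives the SD of the 3 libraries of a group. Guidance genes were given with every library where the highest group reached 1 FPKM and a called absolute log2 fold change reached 2, together with the gene of highest mean level in each of 11 roles. Genes of the other list were eligible to be named by the same limits. Simulated counts with 200 changed genes were used to test the scripts. Same-numbered libraries did not deviate together (correlations across genes of -0.112 to 0.195), so the numbers were not taken as pairs. Promoters were matched to RefSeq by symbol with Python 3.11.15.

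Alternatives were DESeq2 1.42.0, RLE size factors, other filters on low counts, a replicate block, fits of only the groups compared, library totals in FPKM and the removal of each library.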

Additional observations from a re-analysis of the deposited data

How the results depend on the processing

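Over 16 alternative settings, 1363 values were recomputed. No count of called guidance genes moved by more than 1.5 times, no called fold change of the 26 genes given in full reversed, and the split into higher and lower genes was the same with RLE size factors and DESeq2, under which the median of all genes tested lay on the log2 scale between -0.034 and 0.006. With at least 10 reads required in every library, 48 guidance genes were tested, and 44, 40 and 46 were called (PVASCs with Sub-ASCs, then PVASCs with Ab-ASCs, then Ab-ASCs with Sub-ASCs). With a replicate block the counts were 52, 44 and 49, and 56 for any difference. When each library was left out in turn they ranged from 49 to 52, 42 to 45, 48 to 49 and 54 to 56, counts of changes of at least 2-fold from 35 to 37, 23 to 27 and 34 to 36, and the other pathway genes called from 44 to 46. With at least 10 reads in every library the counts of at least 2-fold were 30, 18 and 33, with 39 of the other pathway genes called, and in fits of only the groups compared 36, 22 and 36. For the 10-read filter, the replicate block, the left-out libraries and those fits, the share of all genes called was not computed. Their counts therefore have no background. Among the 26 genes, the fold changes that lost their call were those of Sema3f (PVASCs against Sub-ASCs), which was also lost without a filter on low counts (log2 fold change 0.22, adjusted p = 0.0571), and of Unc5c and Sema6c (PVASCs against Ab-ASCs), each given above with the libraries concerned. Fold changes near 0 that were not called, those of Epha1 and Plxnb2 (PVASCs against Ab-ASCs) and Plxnc1 (PVASCs against Sub-ASCs), changed sign under some settings and were called under none. With the library total in place of TMM, 39 of 78 mean FPKM values moved by more than the SD of their replicates. Fits of only the groups compared give no value for any difference among the 3 groups. Depth limited 9 guidance genes, with 0 to 34 reads per group, to a level without a test. No test of the passage or the source animal of the cultures was possible.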
